A study of Mus musculus with 15 samples.

Results

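The genes that build the protein import machinery of mitochondria were followed in 6DT1 cells with and without the chloride intracellular channel protein CLIC4. They were taken by name from the table of gene counts: every symbol that starts with Timm or Tomm followed by a digit, Timmdc1, and the partner genes Pam16, Dnajc19, Grpel1, Grpel2, Hspa9, Pmpca, Pmpcb, Samm50 and Chchd4, without symbols of pseudogenes marked -ps. The rule found 36 of the 55341 symbols. Of these, 34 passed the filter on low counts, among 13085 genes tested in all. The 34 are 33 protein-coding genes and the antisense RNA Tomm6os.

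6DT1 is a line of mammary cancer cells from mice on the FVB/N1 strain. Wild-type and Clic4-knockout cells were either left untreated or given 1 µM hydrogen peroxide (H2O2), and polyadenylated RNA was sequenced after 24 h. The 15 libraries were 4 of untreated wild-type cells (replicates 9 to 12), 4 of wild-type cells with H2O2 (replicates 13 to 16), 4 of untreated knockout cells (replicates 1 to 4) and 3 of knockout cells with H2O2 (replicates 5, 7 and 8). The labels do not give the number of knockout clones or say that replicates were separate cultures, so the p-values measure only the spread between these libraries.

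Nearly all mitochondrial proteins are made in the cytosol and carried into the organelle after translation. The TOM complex is their shared entry through the outer membrane, and its receptors recognise precursors that chaperones hold unfolded. Behind it the paths divide: small TIM chaperones carry membrane proteins through the intermembrane space, TIM22 inserts carriers into the inner membrane, and TIM23 with its ATP-driven motor pulls precursors with a presequence into the matrix, where a peptidase cuts the presequence off.

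Library totals ran from 12.3 to 16.0 M counts. Clic4 itself stood at 316 to 327 CPM (counts per M counts, scaled by TMM) in the wild type without treatment and at 64.2 to 75.1 CPM in the knockout without treatment. With H2O2 the ranges were 313 to 317 CPM and 68.4 to 75.9 CPM. Of 6 epithelial markers, Krt8 and Krt18 were high, at means of 646 and 334 CPM in untreated wild-type cells, while Epcam, Cdh1, Krt7 and Cldn4 stayed under 1 CPM in every library, so that 4 of the 6 defining markers were at or near 0. Krt18 averaged 153 CPM in untreated knockout cells. Wild-type replicate 9 stood apart: its genotype field reads knockout although its title and source read wild type, and its 6 leukocyte markers summed to 26.1 CPM, while the other 14 libraries had sums between 0.267 and 1.30 CPM. Its red-cell markers (1.01 CPM) and endothelial markers (3.51 CPM) also had the highest sums of any library, against at most 0.209 and 2.40 CPM elsewhere. With 327 CPM it had the highest Clic4 level of all libraries, next to 313 to 324 CPM in the other wild-type libraries and far from the knockout range, and it was kept as wild type. The summed level of 5 fibroblast markers was 19.5 to 21.9 CPM in wild-type libraries without treatment and 11.1 to 13.8 CPM in the matching knockout ones. Nearly all of that sum was Pdgfra (means of 19.5 and 11.0 CPM), while Col1a1, Col1a2 and Dcn averaged under 1 CPM in both genotypes, with Col1a2 and Dcn higher in the knockout (0.281 and 0.287 against 0.101 and 0.155 CPM), and Lum was at 0. Whether these markers have a part in the genotype differences of import genes was not tested.

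In untreated cells the import genes mostly stood a little higher in the knockout. Of 34 tested, 18 were higher (52.9%) and 7 lower (20.6%) in the knockout by edgeR's quasi-likelihood test at an adjusted p under 0.05 (Benjamini-Hochberg over all genes). The background was high: 66.8% of all genes tested passed the same threshold, 33.9% higher and 32.9% lower, and the 25 import genes called make 73.5%. The median log2 fold change of the 34 tested was 0.14, beside 0.00 over all genes tested. The differences were small: no protein-coding member and only Tomm6os passed the test with a change of at least 1.5-fold, a size reached by 24.4% of all genes. The libraries of the genotypes did not overlap for 21 of 34 members (61.8%), beside 58.5% of all genes. Since each library pools many cells, a change in the share of cells with a transcript and a change in its level per cell cannot be told apart. Without replicate 9, 22 members were called, 17 higher and 5 lower, and Timm44, Tomm22 and Tomm6os were no longer called. Fits that each left out 1 untreated library called 8399 to 8682 of all genes.

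**Figure D1:**
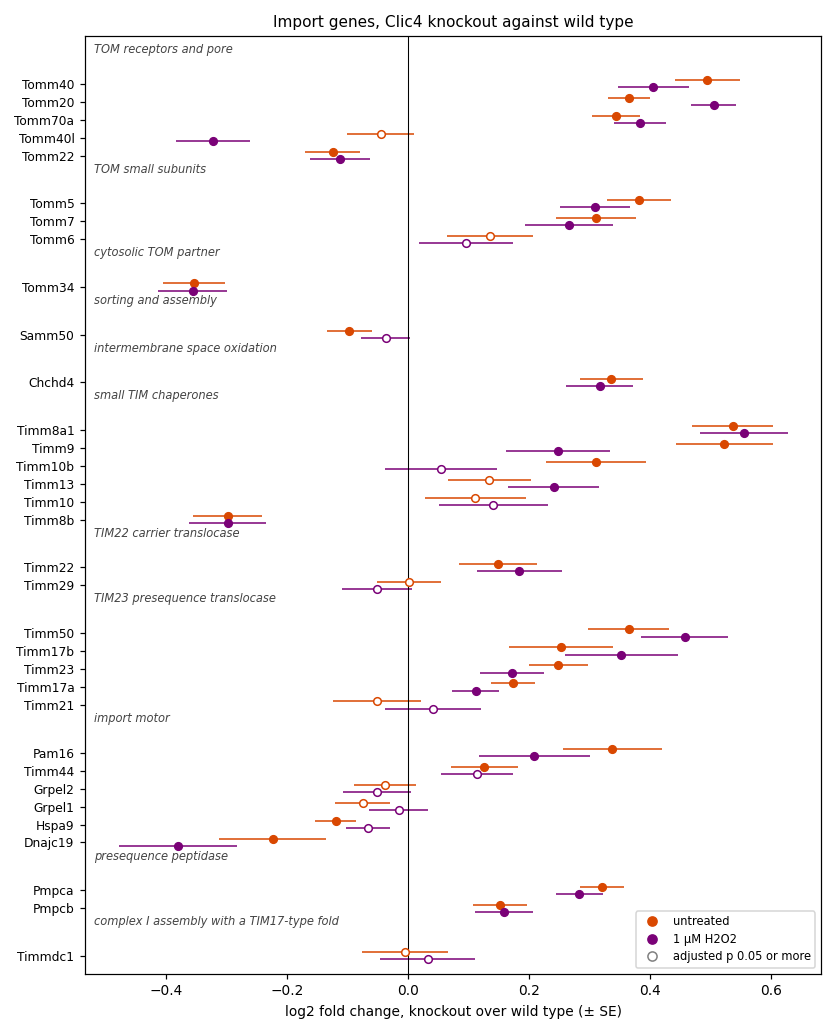
Log2 fold change of the 33 protein-coding import genes, knockout over wild type, in untreated cells (orange) and with 1 µM H2O2 (purple), grouped by role; bars are ± 1 SE and open points have an adjusted p of 0.05 or more. Points lie between -0.38 (Dnajc19 with H2O2) and 0.55 (Timm8a1 with H2O2), with more filled points to the right of 0 than to the left.

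The 300-base windows that RefSeq gives for promoters (GRCm38.p6, 250 bases before RefSeq's transcript start to 50 after) were found for 31 of the 36 members. Motifs of 3 kinds were searched in them on both strands: the E-box CACGTG, the core site of MYC-type factors, the NRF1 motif and the ETS motif CCGGAAG, which is read by factors such as GABP. The E-box was in 7.15% of 32851 promoter windows and in 6 of the 31 members: Timm8a1, Timm9, Timm10, Tomm20, Tomm20l and Tomm6os. The NRF1 motif was in 4.6% of all windows and in Chchd4, Pam16, Tomm20 and Timm8b. The ETS motif was in 8.86% of all windows and in 13 members, 5 called higher in the knockout (Pmpca, Pmpcb, Timm10b, Timm23 and Tomm70a), 3 called lower (Timm8b, Tomm22 and Tomm34) and 5 not called or not tested (Grpel1, Timm10, Timm29, Timm8a2 and Timmdc1). Among called members, the E-box was in 3 higher (Timm8a1, Timm9 and Tomm20) and 1 lower, the antisense RNA Tomm6os with few reads. The NRF1 motif was in 3 higher (Chchd4, Pam16 and Tomm20) and 1 lower (Timm8b). The percentages count windows, while a member was counted if any of its windows held the motif. A gene can have more than 1 window, as Tomm34 does, so members and percentages are not like for like. A match is a run of letters and not a measured binding site.

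The promoters printed here are examples, as the ETS motif was in 5 members called higher and 3 called lower. The E-box was also in Tomm6os, which fell. Promoters are printed for 3 members that rose in the knockout and hold an E-box (Timm8a1, Timm9 and Tomm20). Those of Timm8b and Tomm34, which fell and hold the ETS motif, are printed too. Each is 280 bases, from 250 before the start to 30 after, read 5′ to 3′ on the gene's own strand, with matches to the 3 motifs in capitals. The positions on GRCm38.p6 are chrX:134541641-134541920 (minus) for Timm8a1, chr12:71136646-71136925 (minus) for Timm9, chr8:126945892-126946171 (minus) for Tomm20, chr9:50603651-50603930 (plus) for Timm8b and chr2:164071073-164071352 (minus) for Tomm34, for which the second of its listed starts is shown.
Timm8a1: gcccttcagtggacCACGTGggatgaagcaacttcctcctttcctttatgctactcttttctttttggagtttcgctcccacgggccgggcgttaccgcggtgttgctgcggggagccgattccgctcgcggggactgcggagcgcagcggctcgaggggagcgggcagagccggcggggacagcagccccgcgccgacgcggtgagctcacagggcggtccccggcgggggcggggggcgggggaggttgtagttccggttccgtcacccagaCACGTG
Timm9: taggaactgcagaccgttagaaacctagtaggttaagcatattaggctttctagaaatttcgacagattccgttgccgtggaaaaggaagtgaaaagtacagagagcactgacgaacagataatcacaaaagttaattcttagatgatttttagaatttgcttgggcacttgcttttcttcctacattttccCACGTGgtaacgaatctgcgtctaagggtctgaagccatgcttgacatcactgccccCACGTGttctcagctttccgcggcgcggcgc
Tomm20: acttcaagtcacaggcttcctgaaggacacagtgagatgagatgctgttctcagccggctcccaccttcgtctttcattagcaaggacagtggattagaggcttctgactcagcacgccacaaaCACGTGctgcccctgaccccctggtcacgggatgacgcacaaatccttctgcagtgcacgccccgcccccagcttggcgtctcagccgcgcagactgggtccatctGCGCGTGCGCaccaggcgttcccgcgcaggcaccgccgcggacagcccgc
Timm8b: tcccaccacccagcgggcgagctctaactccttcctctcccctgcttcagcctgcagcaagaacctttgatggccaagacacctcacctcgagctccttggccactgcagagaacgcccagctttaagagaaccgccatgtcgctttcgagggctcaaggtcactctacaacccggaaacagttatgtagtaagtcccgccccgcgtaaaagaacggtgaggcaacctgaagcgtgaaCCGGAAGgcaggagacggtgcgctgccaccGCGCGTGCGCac
Tomm34: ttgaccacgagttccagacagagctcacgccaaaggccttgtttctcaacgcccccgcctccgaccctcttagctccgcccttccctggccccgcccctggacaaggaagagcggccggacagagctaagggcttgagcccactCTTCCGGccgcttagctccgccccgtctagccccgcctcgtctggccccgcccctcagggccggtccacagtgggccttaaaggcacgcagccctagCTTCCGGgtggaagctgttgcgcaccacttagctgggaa
The start in RefSeq is not always the end of the gene as printed here from GENCODE. It lies 195 bases inside the gene for Timm8a1, 67 for Tomm34 and 9 for Timm9, and 77 bases before it for Tomm20 and 9 for Timm8b. The last 20 bases of the 300-base window were found in a GENCODE transcript of the same gene for 24 of the 31 members, among those printed for Timm9, Timm8b and Tomm34 but not for Timm8a1 and Tomm20. Counting the first base after RefSeq's start as 0, the E-boxes of Timm8a1 start at -236 and 24, and those of Timm9 at -58 and -1. In Tomm20 the E-box starts at -126 and the NRF1 motif at -20. In Timm8b the ETS motif starts at -12 and the NRF1 motif at 18, and neither was found in the window of its paralogue Timm8a1. The printed window of Tomm34 has the ETS motif on the opposite strand at -106 and -9. Its first listed start, not printed, coincides with the end of the gene in GENCODE. The window of that start has a single match to the motif, at -39.

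Among the receptors and the pore of TOM, 3 of 5 tested members rose and 1 fell. Counts by role, here and below, cover few genes and stand beside 33.9% of all genes called higher and 32.9% called lower. Tomm20, the receptor for presequences (chromosome 8, 126930667 to 126945844, minus strand), read 252, 258, 251 and 243 CPM in untreated wild-type replicates 9 to 12 and 332, 334, 318 and 309 CPM in untreated knockout replicates 1 to 4. The lowest knockout library was well above the highest wild-type one. Tomm20 rose by a log2 fold change of 0.36 (SE 0.03, adjusted p = 2.74e-10), the smallest adjusted p of any member in this comparison. The 10 loci nearly identical to Tomm20 held 1.67% of its counts, and with them summed the log2 fold change was 0.36.

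Tomm40 forms the pore itself (chromosome 7, 19701313 to 19715438, minus strand). Wild-type libraries held 61.3, 59.6, 60.3 and 62.4 CPM and knockout libraries 86.0, 84.1, 91.3 and 81.7 CPM, with a clear gap between them. The log2 fold change was 0.49 (SE 0.05, adjusted p = 5.4e-09). Its paralogue Tomm40l averaged 39.6 ± 3.41 and 38.4 ± 1.24 CPM (SD, n = 4 each) and was not called (log2 -0.05, adjusted p = 0.484).

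Tomm70a receives carrier precursors from cytosolic Hsp70 and Hsp90 (chromosome 16, 57121703 to 57156705, plus strand). It read 156, 152, 159.9 and 146 CPM in wild-type and 195, 197, 185 and 200.4 CPM in knockout libraries, again without overlap, a log2 fold change of 0.34 (SE 0.04, adjusted p = 1.27e-08). Its exons share 41 bases with Nit2 on the opposite strand, which rose by 0.25. Tomm22, the central receptor that holds the complex together, was the member of this group that fell: 66.8, 63.6, 65.7 and 61.2 CPM against 59.9, 60.3, 58.3 and 57.4 CPM, log2 -0.12, SE 0.05, adjusted p = 0.0176. The margin between its groups was narrow, and without wild-type replicate 9 it was not called (log2 -0.11, adjusted p = 0.0616). So the receptors did not move together: Tomm20 and Tomm70a were higher and Tomm22 slightly lower in the same libraries.

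**Figure D2:**
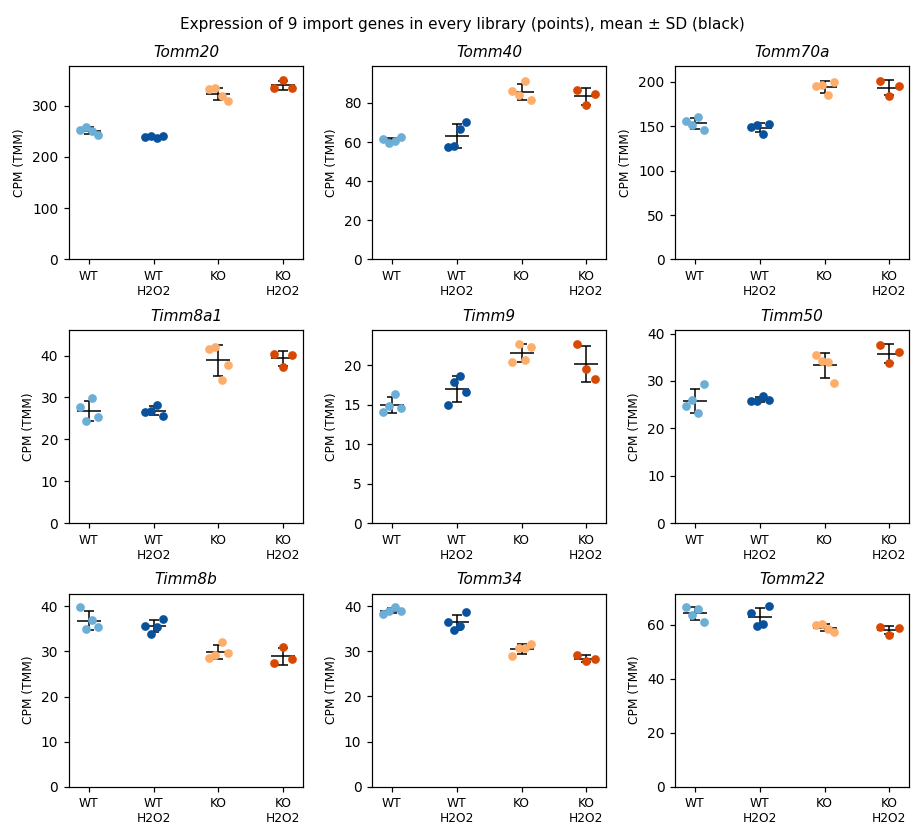
TMM-scaled CPM of 9 import genes in each of the 15 libraries (points; light and dark blue, wild type without and with H2O2; light and dark orange, knockout without and with H2O2), with mean ± SD in black; each axis starts at 0. Tomm20, Tomm40, Tomm70a, Timm8a1, Timm9 and Timm50 sit higher and Timm8b, Tomm34 and Tomm22 lower in the knockout.

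The small TOM subunits stabilise the pore complex. Tomm5 (chromosome 4, 45105208 to 45108114, minus strand) read 34.0, 32.3, 31.8 and 31.4 CPM in wild-type and 43.3, 43.6, 41.4 and 40.5 CPM in knockout libraries. All knockout values exceeded all wild-type ones, and the log2 fold change was 0.38 (SE 0.05, adjusted p = 3.42e-07). Tomm7 rose from 46.3 ± 2.18 to 57.4 ± 2.02 CPM (SD, n = 4 each; log2 0.31, SE 0.07, adjusted p = 0.000222). Tomm6 averaged 31.5 ± 0.850 and 34.6 ± 2.30 CPM, its groups overlapped, and it was not called (log2 0.14, adjusted p = 0.0937). Tomm6 shares exon sequence with Gm21981 on its own strand and with Tomm6os and Usp49 on the other.

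Tomm34 is a cytosolic co-chaperone that binds Hsp70 and Hsp90 (chromosome 2, 164053540 to 164071169, minus strand). Its wild-type libraries read 38.3, 39.0, 39.7 and 39.0 CPM and its knockout libraries 29.0, 30.7, 30.6 and 31.6 CPM. The values were tight within each genotype and far apart between them. Its log2 fold change of -0.35 (SE 0.05, adjusted p = 6.67e-07) was the largest fall of a protein-coding member.

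Samm50 is the core of the outer-membrane assembly complex that inserts beta-barrel proteins, Tomm40 among them (chromosome 15, 84192241 to 84217267, plus strand). It read 115, 117, 115 and 122 CPM in wild-type and 109, 109, 111 and 109 CPM in knockout libraries. The groups stood apart but by little, with a log2 fold change of -0.10 (SE 0.04, adjusted p = 0.0239). The call was lost without knockout replicate 1 (log2 -0.09, adjusted p = 0.052) and without wild-type replicate 12 (log2 -0.09, adjusted p = 0.0569).

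Chchd4, the oxidoreductase that forms disulfide bonds in small intermembrane-space proteins (chromosome 6, 91462172 to 91473546, minus strand), read 54.8, 51.4, 51.7 and 54.0 CPM against 67.9, 67.2, 63.5 and 68.9 CPM. No knockout library reached down to the wild-type range. Chchd4 rose by 0.34 (SE 0.05, adjusted p = 1.85e-06) on the log2 scale.

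The small TIM chaperones include clients of Chchd4. Of 6 tested, 3 rose (Timm8a1, Timm9 and Timm10b), 1 fell (Timm8b) and 2 were not called (Timm10 and Timm13). Over all genes tested, 66.8% were called, 33.9% higher and 32.9% lower. Timm8a1, which works in a ring with Timm13 (chromosome X, 134537256 to 134541865, minus strand), had the largest rise of any member. It read 27.6, 24.4, 29.8 and 25.4 CPM in wild-type and 41.6, 42.0, 34.2 and 37.8 CPM in knockout libraries, 1.45-fold higher with no overlap (log2 0.54, SE 0.07, adjusted p = 6.39e-08). A second locus, Gm9797, is identical to Timm8a1 over 612 bases and held a mean of 66.25 counts in wild-type libraries, 16.8% of the Timm8a1 mean. With the counts of both summed, the log2 fold change was 0.56 (adjusted p = 5.96e-10).

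Timm8b, the paralogue of Timm8a1, went the other way (chromosome 9, 50603910 to 50605320, plus strand). Wild-type libraries read 39.8, 35.1, 36.9 and 35.5 CPM and knockout libraries 28.6, 29.3, 32.0 and 29.6 CPM. All knockout values were below all wild-type ones, and the log2 fold change was -0.30 (SE 0.06, adjusted p = 4.61e-05). Its exons share 81 bases with Nkapd1 on the opposite strand, which rose by 0.36.

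Timm9 builds the ring with Timm10 that carries membrane proteins (chromosome 12, 71123173 to 71136684, minus strand). It was low in counts, at 14.1, 14.8, 16.4 and 14.6 CPM in wild-type and 20.4, 22.7, 20.7 and 22.3 CPM in knockout libraries, yet the groups were separate. The log2 fold change was 0.52 (SE 0.08, adjusted p = 1.67e-06). Timm10 averaged 15.0 ± 1.35 and 16.2 ± 0.50 CPM (log2 0.11, adjusted p = 0.245), and Timm13 40.3 ± 3.68 and 44.3 ± 3.73 CPM (log2 0.13, adjusted p = 0.0881). Both overlapped between genotypes. In each ring 1 tested partner rose and the other did not pass the test, although partners were not compared directly.

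Timm10b, a small TIM that docks on TIM22, averaged 13.2 ± 1.24 and 16.3 ± 0.727 CPM (log2 0.31, SE 0.08, adjusted p = 0.0017). This call depends on how reads are shared with Gm45799, an overlapping annotation on the same strand with 376 bases in common, which fell by 0.68 on the log2 scale. With both summed the log2 fold change was 0.13 and the adjusted p = 0.120, so Timm10b was no longer called. The exons of Timm10b also share 277 bases with Arfip2 on the opposite strand, which was not called (log2 -0.02).

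Timm22 is the channel of the carrier translocase (chromosome 11, 76406952 to 76416292, plus strand). It read 25.6, 24.8, 24.7 and 23.9 CPM in wild-type and 27.8, 30.3, 25.1 and 26.5 CPM in knockout libraries, and the groups overlapped. It rose by 0.15 (SE 0.06, adjusted p = 0.0439) on the log2 scale. This was the least stable call among the protein-coding members: 4 of 13 alternative settings kept it, with adjusted p between 0.0172 and 0.202. It was lost without knockout replicate 1 (0.0787) or 2 (0.202) and without wild-type replicate 10 (0.0707), 11 (0.0882) or 12 (0.132), and with RLE size factors (0.0556), no filter (0.106), DESeq2 (0.102) or only the groups compared (0.0658), all adjusted p. Timm29, the other subunit of this complex in the set, averaged 31.3 ± 0.767 and 31.3 ± 0.781 CPM (log2 0.00, SE 0.05). The exons of Timm29 share 107 bases with Yipf2 on the opposite strand, which fell by 0.39.

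The TIM23 complex imports proteins with a presequence, and 4 of its 5 members rose while none fell. Of all genes tested, 33.9% rose and 32.9% fell. Timm50, the receptor that hands precursors to the channel (chromosome 7, 28305516 to 28312072, minus strand), read 24.7, 25.9, 23.3 and 29.3 CPM in wild-type and 35.5, 34.2, 34.1 and 29.5 CPM in knockout libraries. Knockout replicate 4 was only just above wild-type replicate 12, and the other libraries were well separated. The log2 fold change was 0.36 (SE 0.07, adjusted p = 2.68e-05). Timm23, the channel, rose by 0.25 (SE 0.05, adjusted p = 5.51e-05), and its partners Timm17a and Timm17b by 0.17 (SE 0.04, adjusted p = 0.000118) and 0.25 (SE 0.09, adjusted p = 0.0117). The 6 loci nearly identical to Timm23 held 6.44% of its counts, and with them summed the log2 fold change was 0.23. Timm17b was not called without knockout replicate 3 (log2 0.17, adjusted p = 0.0861) or wild-type replicate 12 (log2 0.17, adjusted p = 0.0876). Timm21, which links TIM23 to TOM and the respiratory chain, averaged 23.4 ± 2.01 and 22.6 ± 2.23 CPM and was not called (log2 -0.05).

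The motor on the matrix side showed no common direction, with 2 of 6 members higher, 2 lower and 2 not called. These counts stand beside 33.9% higher and 32.9% lower over all genes tested. Hspa9, the mitochondrial Hsp70 that does the pulling, was by far the most abundant member, with 1546, 1574, 1575 and 1475 CPM in wild-type and 1428, 1481, 1399 and 1371 CPM in knockout libraries. Its groups overlapped at their edges. Hspa9 was called lower, with a log2 fold change of -0.12 (SE 0.03, adjusted p = 0.00291).

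Pam16 regulates the motor by holding back its J-protein (chromosome 16, 4616464 to 4624988, minus strand). It read 14.3, 12.7, 16.0 and 13.1 CPM against 18.6, 18.3, 18.0 and 16.1 CPM, with a gap of less than 1 CPM between the groups, and rose by 0.34 (SE 0.08, adjusted p = 0.000692). Its exons share 455 bases with Glis2 on the opposite strand, which also rose (log2 0.43, adjusted p = 1.53e-05). The library kit keeps strand, but whether counting used it is not given in the sources used here.

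Dnajc19 is the J-protein that stimulates Hspa9. It averaged 12.8 ± 0.664 CPM in wild-type and 11.0 ± 0.561 CPM in knockout libraries and fell by 0.22 (SE 0.09, adjusted p = 0.0263) on the log2 scale. The call was lost without knockout replicate 1 (adjusted p = 0.0576) or 3 (0.0663) and without wild-type replicate 10 (0.0578) or 12 (0.0505), and with DESeq2 (0.0531). Its exons share 178 bases with Fxr1 on the opposite strand, which has more than 10 times its counts in wild-type cells (a mean of 2045.5 against 188.75) and rose by 0.27. Timm44, which tethers Hspa9 to the channel, was at the threshold (log2 0.13, SE 0.06, adjusted p = 0.0462), and its groups overlapped. It was called in 5 of 13 alternatives, and not without knockout replicate 1 or 3 or wild-type replicate 9, 10 or 11, nor with RLE size factors, no filter or DESeq2 (adjusted p from 0.0538 to 0.168). Grpel1 and Grpel2, the nucleotide exchange factors of Hspa9, were not called (log2 -0.08 and -0.04, adjusted p = 0.141 and 0.528). The exons of Grpel1 share 411 bases with Tada2b on the opposite strand, which was not called (log2 0.07).

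Both subunits of the presequence peptidase rose, beside 33.9% of all genes tested. Pmpca (chromosome 2, 26389339 to 26397122, plus strand) read 135, 130.1, 129 and 129 CPM in wild-type and 169, 165, 155 and 164 CPM in knockout libraries, without overlap, and the log2 fold change was 0.32 (SE 0.04, adjusted p = 7.81e-09). It shares 874 exon bases with Inpp5e on the opposite strand, which fell by 0.51. Pmpcb, the catalytic partner, rose from 64.6 ± 2.19 to 71.7 ± 2.81 CPM (SD, n = 4 each; log2 0.15, SE 0.04, adjusted p = 0.00362).

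Timmdc1 has a TIM17-type fold but helps to assemble respiratory complex I (chromosome 16, 38498347 to 38522663, minus strand). Its libraries read 16.3, 16.4, 17.0 and 16.8 CPM in wild-type and 17.5, 15.9, 17.6 and 15.4 CPM in knockout cells, and the knockout range enclosed the wild-type one. It was not called (log2 -0.01, SE 0.07, adjusted p = 0.951).

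Tomm6os, Timm8a2 and Tomm20l had few reads or none. Tomm6os, an antisense RNA over Tomm6 (chromosome 17, 47687610 to 47691083, plus strand), had a mean of 9.25 counts per untreated wild-type library. It read 0.675, 0.567, 0.765 and 0.510 CPM in wild-type and 0, 0.411, 0.443 and 0.267 CPM in knockout libraries, and fell by 1.09 (SE 0.46, adjusted p = 0.0387) on the log2 scale. Its exons overlap Tomm6, Gm21981 and Prickle4 on the opposite strand and 69 bases of Frs3 on its own, so its reads are uncertain. Leaving out knockout replicate 1 (adjusted p = 0.122) or 4 (0.0682) or wild-type replicate 9 (0.0656) or 11 (0.0861) ended the call. So did no filter on low counts (0.0584) and DESeq2 (0.0643). Timm8a2, a Timm8a1 paralogue, had 1 count in all 15 libraries together, in wild-type replicate 9. Tomm20l, a Tomm20 paralogue, had 0 counts in every library.

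Compared per length, the import genes spanned about 2 orders of magnitude. Levels between genes are given as CPM per kb of annotated exon (GENCODE M21), because the deposited RPKM implies a length of 879 bases for Hspa9 while its exons cover 4310 bases. Hspa9 was the only member whose implied length was under 0.5 of its exon length. On this scale Hspa9 led with 358 in wild-type and 329 in knockout cells. Next in wild-type cells came Timm8b (71.1), Tomm20 (51.2), Timm23 (41.8), Tomm7 (41.1), Tomm22 (38.9) and Tomm5 (37.3), of which Timm23 and Tomm7 differed by less than their SD. In knockout cells Tomm20 (65.9) stood above Timm8b (57.7). The lowest protein-coding members that passed the filter were Dnajc19 (3.18 and 2.72 CPM per kb in wild-type and knockout cells), Timm9 (3.50 and 5.02) and Timm10b (3.67 and 4.56). Subunits of one complex were thus not at equal transcript levels: within the motor, Hspa9 was more than 100 times Dnajc19 on this scale. The order of members depends on the length used. By deposited RPKM in untreated wild-type cells, Dnajc19 (6.19) stood above Timm17b (5.96), Timm9 (5.60) and Timm10b (3.72). On that scale Timm23 (56.2) also stood above Timm8b (48.2).

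**Figure D3:**
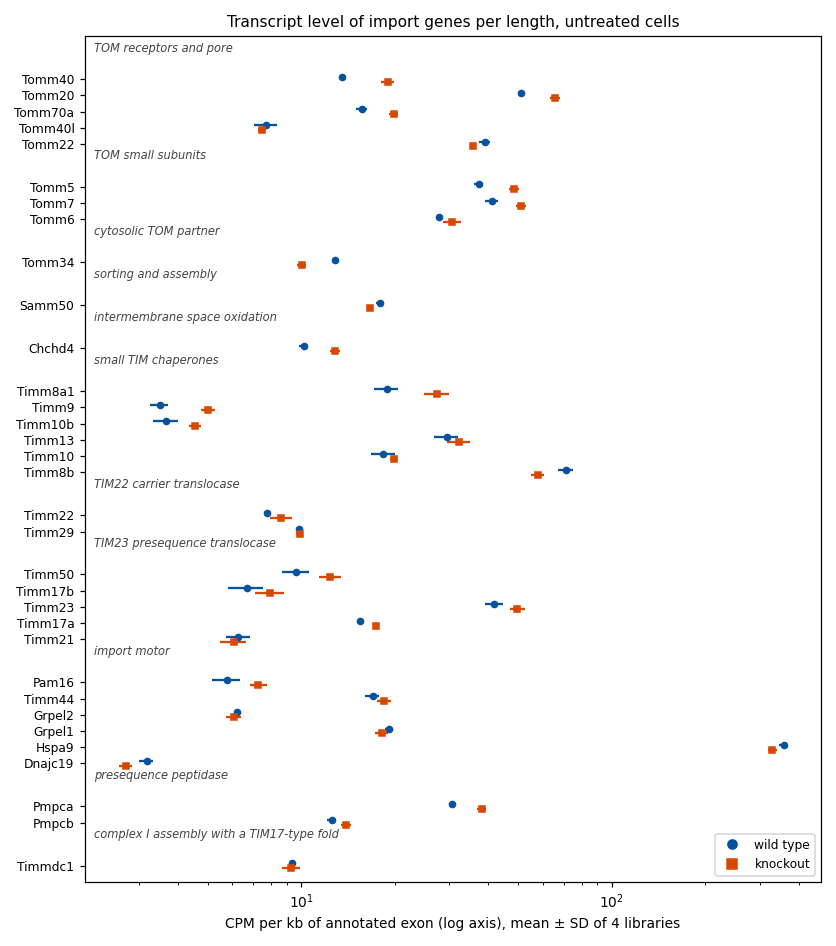
Transcript level per length (CPM per kb of annotated exon, log axis) of the 33 protein-coding import genes in untreated wild-type (blue circles) and knockout (orange squares) cells, as mean ± SD of 4 libraries. Hspa9 stands alone at 358 and 329, and Dnajc19 is lowest at 3.18 and 2.72.

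Summed over the 33 protein-coding members, wild-type libraries held 3307 ± 61.5 CPM and knockout libraries 3443 ± 70.4 CPM (SD, n = 4 each). Hspa9 was the largest single term, and without it the sums were 1765 ± 21.97 and 2023 ± 28.5 CPM. By role, the TOM receptors and pore summed to 569 ± 11.6 and 701 ± 13.1 CPM, the TIM23 members to 263 ± 4.49 and 302 ± 8.92 CPM, and the peptidase to 195 ± 4.63 and 235 ± 6.21 CPM. The small TIM chaperones summed to 147 ± 4.53 and 167 ± 3.41 CPM. The motor, with Hspa9 in it, was the group whose sum was lower in the knockout by the most CPM, at 1741 ± 45.3 and 1621 ± 44.5 CPM. Most of this sum was Hspa9, with means of 1542 and 1420 CPM, a difference no smaller than that of the whole motor. These sums describe the libraries and were not tested.

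The ratio of some partners or paralogues differed between the genotypes' libraries, given here as the ratio of deposited RPKM within a library and as a description only. Timm8a1 over Timm8b was 0.327 ± 0.0239 in the wild type and 0.588 ± 0.0804 in the knockout without treatment (SD, n = 4 each). With H2O2 it was 0.339 ± 0.0227 (n = 4) and 0.615 ± 0.0633 (n = 3). Timm8b remained the more abundant of the pair per length in every library. Tomm20 over Tomm22 was 1.46 ± 0.0501 and 2.05 ± 0.0289 without H2O2, and Tomm40 over Tomm40l 3.15 ± 0.224 and 4.56 ± 0.330. In the motor, Pam16 over Dnajc19 was 1.41 ± 0.228 and 2.08 ± 0.204, the regulator against the J-protein it holds. Other pairs kept closer ratios: Tomm70a over Tomm20 was 0.418 ± 0.0155 and 0.412 ± 0.0215, Timm17a over Timm17b 2.69 ± 0.328 and 2.54 ± 0.296, and Grpel1 over Grpel2 1.81 ± 0.0933 and 1.76 ± 0.0678.

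**Figure D4:**
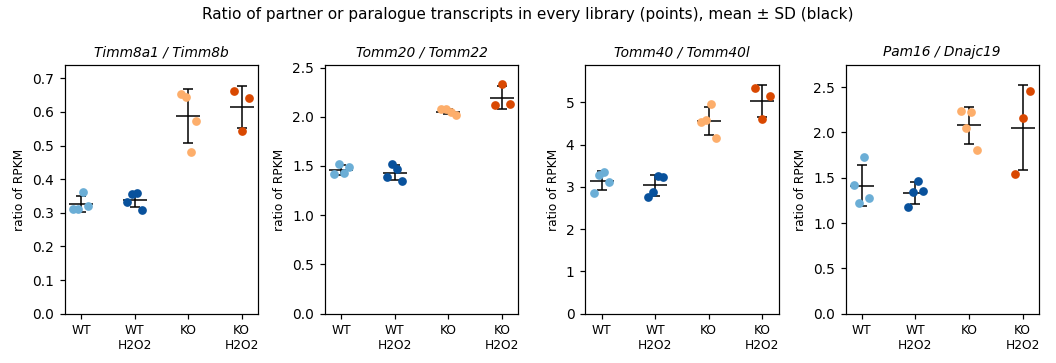
Ratio of RPKM between partner or paralogue genes in each of the 15 libraries (points), with mean ± SD in black, for wild-type (blue) and knockout (orange) cells without and with H2O2; each axis starts at 0. All 4 ratios sit higher in the knockout, for example 0.327 and 0.588 for Timm8a1 over Timm8b in untreated cells.

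With H2O2 present in both genotypes, other libraries gave a second view of the genotype difference. Of 34 members, 17 were higher and 6 lower in the knockout, 67.6% in all, beside a background of 65.4% of all genes tested (33% higher, 32.4% lower). Tomm6os was again the only member called with a change of at least 1.5-fold, beside 25.4% of all genes. The median was 0.13, beside 0.00 over all genes. The groups did not overlap for 20 members (58.8%), beside 66.4% of all genes. Across both comparisons, 16 members (47.1%) were higher each time, beside 29.8% of all genes: Tomm20, Tomm40, Tomm70a, Tomm5, Tomm7, Chchd4, Timm8a1, Timm9, Timm22, Timm23, Timm17a, Timm17b, Timm50, Pam16, Pmpca and Pmpcb. Another 5 (14.7%) were lower each time, beside 28.7% of all genes (Tomm22, Tomm34, Timm8b, Dnajc19 and Tomm6os), and none changed sides among called members. The 7 called in neither were Tomm6, Timm10, Timm29, Timm21, Grpel1, Grpel2 and Timmdc1.

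Tomm20 read 239, 241, 237 and 241 CPM in wild-type replicates 13 to 16 and 335, 349.6 and 334 CPM in knockout replicates 5, 7 and 8. The groups were again fully apart, with a log2 fold change of 0.50 (SE 0.04, adjusted p = 1.68e-12). Timm8a1 rose by 0.55 (SE 0.07, adjusted p = 1.45e-07), Timm50 by 0.46 (SE 0.07, adjusted p = 3e-06), Tomm40 by 0.40 (SE 0.06, adjusted p = 7.62e-07) and Tomm70a by 0.38 (SE 0.04, adjusted p = 7.48e-09). These genes had the same direction with the oxidant as without it. Tomm5, Chchd4 and Pmpca rose by 0.31 (SE 0.06, adjusted p = 3.43e-05), 0.32 (SE 0.06, adjusted p = 1.45e-05) and 0.28 (SE 0.04, adjusted p = 3.03e-07). Tomm34, Timm8b and Dnajc19 were lower again, with log2 fold changes of -0.36 (SE 0.06, adjusted p = 3.37e-06), -0.30 (SE 0.06, adjusted p = 0.00016) and -0.38 (SE 0.10, adjusted p = 0.00127).

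Tomm40l and Timm13 were called with H2O2 and not without it, and the interaction test called neither. Tomm40l read 42.3, 41.2, 41.7 and 44.0 CPM in wild-type and 33.1, 34.8 and 33.5 CPM in knockout libraries, without overlap, and fell by 0.32 (SE 0.06, adjusted p = 3.86e-05) on the log2 scale. Timm13 averaged 37.3 ± 2.25 CPM (n = 4) and 44.1 ± 3.56 CPM (n = 3) and rose by 0.24 (SE 0.07, adjusted p = 0.00672), although its groups overlapped. Samm50, Hspa9, Timm10b and Timm44, called in untreated cells, were not called here (log2 -0.04, -0.07, 0.05 and 0.11, adjusted p = 0.433, 0.113, 0.62 and 0.0961). A call in one comparison and not in the other does not show a difference between them, and the tests of that difference are given with the H2O2 comparisons.

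Several calls with H2O2 rested on single libraries or on a setting. Pam16 read 12.5, 12.8, 13.4 and 13.9 CPM in wild-type and 13.4, 16.1 and 16.0 CPM in knockout libraries with H2O2, overlapped, and had an adjusted p of 0.048 (log2 0.21, SE 0.09). It was not called without knockout replicate 7 (adjusted p = 0.190) or 8 (0.162) or wild-type replicate 13 (0.115), 14 (0.0909) or 15 (0.0609), nor with RLE size factors (0.0538), no filter (0.0847) or DESeq2 (0.101). Timm9 (log2 0.25, SE 0.09, adjusted p = 0.013) was lost without knockout replicate 5 (0.163) or wild-type replicate 13 (0.0643), and Timm22 (log2 0.18, SE 0.07, adjusted p = 0.0232) without knockout replicate 7 (0.101) or wild-type replicate 13 (0.0888) or 14 (0.0579) or with DESeq2 (0.0569). For Tomm22 (log2 -0.11, SE 0.05, adjusted p = 0.0491) leaving out knockout replicate 5, 7 or 8 or wild-type replicate 13 or 16, no filter or DESeq2 ended the call, with adjusted p from 0.0564 to 0.189. Pmpcb (log2 0.16, SE 0.05, adjusted p = 0.0053) was lost without knockout replicate 7 (0.0753) and Timm17a (log2 0.11, SE 0.04, adjusted p = 0.0134) without knockout replicate 8 (0.0964) or a filter (0.0587). Tomm6os (log2 -1.18, SE 0.49, adjusted p = 0.0376) was lost without knockout replicate 5 (0.193) or 7 (0.0743) or wild-type replicate 15 (0.0933), and with no filter (0.0678) or DESeq2 (0.0715). Timm23 (log2 0.17), Timm17b (log2 0.35) and Tomm7 (log2 0.27) were called each time.

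H2O2 itself was followed by no called change among the import genes. By edgeR's quasi-likelihood test 0 of 34 members were called in wild-type cells, beside 0.0153% of all genes, and 0 of 34 in knockout cells, beside 0.0535%. At an unadjusted p under 0.05 there were 2 members in wild-type cells (5.88%, beside 6.47% of all genes) and 3 in knockout cells (8.82%, beside 7.96%). DESeq2 also called 0 members in each genotype, with 2 and 4 at an unadjusted p under 0.05. The share of all genes under that level by DESeq2 is not given here. The members' median log2 fold changes were -0.02 and -0.01. These comparisons use the same libraries as the genotype comparisons and are not independent of them.

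In wild-type cells the smallest p-values belonged to Timm9, Hspa9 and Tomm34. Timm9 read 14.1, 14.8, 16.4 and 14.6 CPM without and 14.9, 17.9, 18.6 and 16.7 CPM with H2O2, a log2 difference of 0.18 (SE 0.08, unadjusted p = 0.0333, adjusted p = 0.727) between groups that overlapped. Hspa9 read 1487, 1461, 1479 and 1451 CPM with H2O2, a difference of -0.07 (SE 0.03, adjusted p = 0.771), and Tomm34 36.5, 34.7, 35.5 and 38.7 CPM, a difference of -0.10 (SE 0.05, adjusted p = 0.775). Both overlapped with their untreated libraries. Treated and untreated wild-type libraries did not overlap for Tomm20 and Timm17a, 2 of 34 members (5.88%), beside 3.81% of all genes.

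In knockout cells they belonged to Timm10b, Tomm40l and Pam16, each lower in all 3 treated libraries than in any untreated one, for Pam16 only just. Timm10b read 16.7, 15.6, 17.2 and 15.8 CPM without and 14.0, 14.5 and 11.9 CPM with H2O2 (log2 -0.28, SE 0.09, adjusted p = 0.371). Tomm40l read 38.7, 37.4, 37.5 and 40.1 CPM without and 33.1, 34.8 and 33.5 CPM with H2O2 (log2 -0.18, SE 0.06, adjusted p = 0.392). Pam16 read 18.6, 18.3, 18.0 and 16.1 CPM without and 13.4, 16.1 and 16.0 CPM with H2O2 (log2 -0.23, SE 0.09, adjusted p = 0.515). With Tomm20, which was also only just apart, 4 members had treated and untreated knockout libraries that did not overlap (11.8%), beside 7.71% of all genes.

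**Figure D5:**
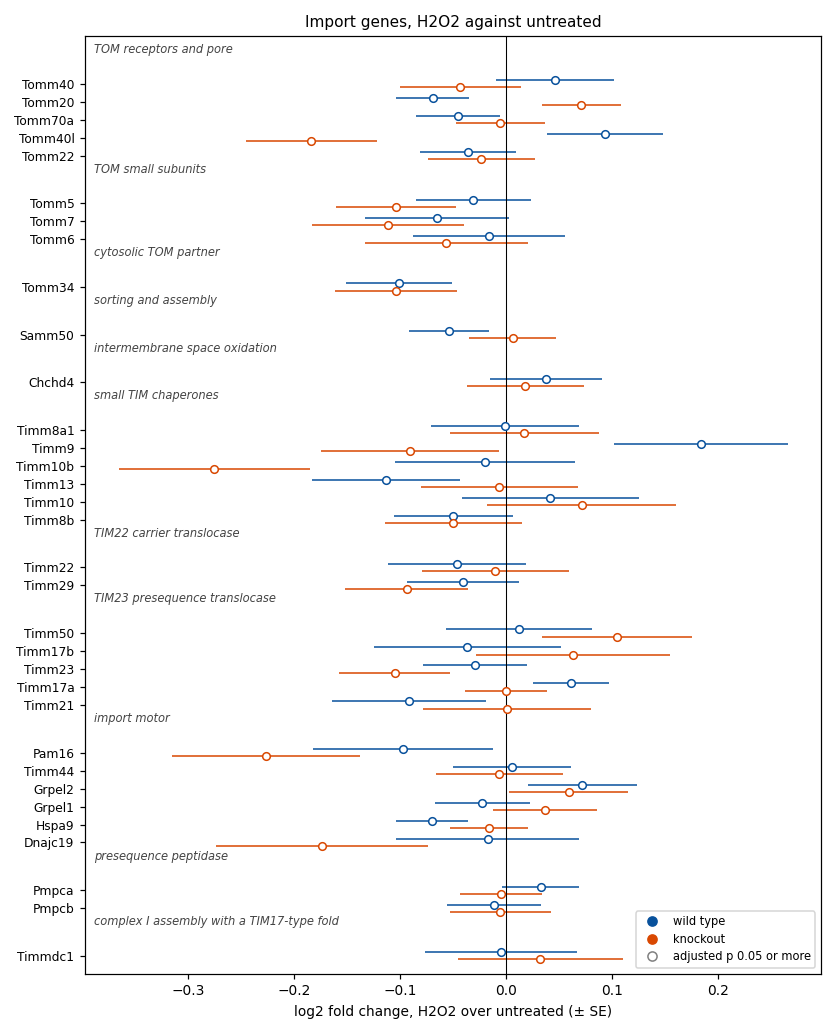
Log2 fold change of the 33 protein-coding import genes, H2O2 over untreated, in wild-type (blue) and knockout (orange) cells, grouped by role; bars are ± 1 SE and every point is open because no adjusted p was under 0.05. The point farthest below 0 is Timm10b at -0.28 in knockout cells, and the point farthest above 0 is Timm9 at 0.18 in wild-type cells.

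Whether the H2O2 difference depended on genotype was tested by an interaction term, and it called 0 of 34 members and 0% of all genes by edgeR's quasi-likelihood test. At an unadjusted p under 0.05 there were 4 members (11.8%), beside 6.18% of all genes. DESeq2 called 0 members, with 2 under that level, and its share of all genes is not given here. The smallest p belonged to Tomm40l, with a log2 difference of -0.28 between genotypes (SE 0.08, unadjusted p = 0.00227, adjusted p = 0.657). Tomm20 followed with 0.14 (SE 0.05, adjusted p = 0.73) and Timm9 with -0.27 (SE 0.12, adjusted p = 0.797). Timm10b had -0.26 (adjusted p = 0.806). None of these differences passed the threshold.

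Other genes of the same pathways were read from lists, whose counts stand beside the 33.9% of all genes called higher and 32.9% called lower in the untreated knockout. Among 19 accessory import genes, 9 were higher and 3 lower in the untreated knockout, with a median of 0.09. Dnajc15, a J-protein of the motor related to Dnajc19, rose from 19.2 ± 0.929 to 25.6 ± 1.39 CPM (log2 0.42, adjusted p = 3.28e-06), opposite to Dnajc19. Romo1, a small inner-membrane protein, rose by 0.43 (adjusted p = 0.000450), and Immp2l, a subunit of the inner-membrane peptidase, rose by 0.64 (adjusted p = 0.00704) from a low level of 2.23 ± 0.724 CPM.

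The mitochondrial chaperones and proteases, which receive imported proteins, had 7 of 10 higher and 2 lower, beside 33.9% and 32.9% of all genes, with a median of 0.31. Trap1, the mitochondrial Hsp90, rose from 109 ± 5.22 to 161 ± 3.85 CPM (log2 0.56, adjusted p = 5.02e-13) and Hspd1, the Hsp60 chaperonin, by 0.48 (adjusted p = 2.23e-11). The protease Lonp1 fell by 0.42 (adjusted p = 1.37e-10). Hspa9 and Lonp1 were thus lower while Trap1 and Hspd1 were higher in the same libraries.

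Of 8 cytosolic chaperones that deliver precursors, 6 were higher and 1 lower, with a median of 0.13. Hspa8, the constitutive Hsp70, rose from 1971 ± 75.2 to 3193 ± 166 CPM (log2 0.70, adjusted p = 7.39e-15), and Stip1, which joins Hsp70 to Hsp90, by 0.34 (adjusted p = 1.01e-09). Ubqln2, a ubiquilin that binds membrane-protein precursors, fell by 0.64 (adjusted p = 5.62e-11). Of 6 genes of the MICOS complex, which shapes cristae, Chchd6 (0.31) and Chchd3 (0.15) rose and Apool fell by 0.43. For scale, 27 of 78 mitochondrial ribosomal protein genes were higher and 11 lower, with a median of 0.05, beside the 33.9% and 32.9% over all genes.

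The members lie on many chromosomes. Their untreated genotype difference can be set beside the median of the tested genes within 1 Mb, which ran from -0.27 around Timm10b to 0.28 around Timm8a1. Member and neighbour median had the same sign for 19 of 34 members and opposite signs for 15, and of the 25 called members for 12 and 13. Some were close to their neighbours: Tomm22 (-0.12 beside -0.15, with 21 of 41 neighbours called lower), Samm50 (-0.10 beside -0.10), Timm13 (0.13 beside 0.12) and Tomm6 (0.14 beside 0.14), named here after their values were seen. For those whose promoters are printed, the values were as follows. Around Timm9 the 11 neighbours had a median log2 fold change of -0.01 and around Tomm20 the 5 neighbours -0.11, against rises of 0.52 and 0.36 for the members. Around Timm8b the 22 neighbours had a median of -0.06 and around Tomm34 the 33 neighbours -0.0011, against -0.30 and -0.35. Around Timm8a1 on the X chromosome the 8 neighbours had a median of 0.28, 4 of them called higher and 3 lower, beside 0.54 for Timm8a1.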

How the data were processed

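The authors deposited a table of expected counts per gene symbol for all 15 libraries, and a table of RPKM, the counts scaled by gene length and library size. The submitters' processing notes name cutadapt, STAR, RSEM and the build mm10; versions, settings and the use of strand in counting are not given in the sources used here. The deposited counts are whole numbers. Per the labels' protocols the libraries were made with a stranded mRNA kit and sequenced as read pairs.

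The counts were tested with edgeR 4.0.16 (limma 3.58.1, R 4.3.3): filterByExpr left 13085 genes with 99.9% of all counts, TMM set the scale of each library, and a single robust quasi-likelihood fit held a mean for each of the 4 groups (11 residual degrees of freedom, a common biological coefficient of variation of 4.96%). Genes with a Benjamini-Hochberg adjusted p under 0.05 over all genes tested were called. "Rose" and "fell" are used for called genes only. The script was tested on simulated data. Alternatives were size factors of the RLE type, no filter, DESeq2 1.42.0, only the groups compared, and leaving out each library. Near-identical loci (at least 90% identity over 200 bases, BLAST 2.17.0) were found. Those that match in the member's own orientation were summed with it, an alternative chosen after seeing the data. Loci that match on the opposite strand, such as Glis2 for Pam16, Inpp5e for Pmpca and Tada2b for Grpel1, were not summed. Gene positions and exon lengths come from GENCODE M21 on mm10. Between replicates, chi-square per degree of freedom was 2.07 to 8.12 over 21 pairs, so no library was a copy of another. This spread cannot tell whether replicates came from separate cultures or the same RNA.

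Members, lists and tests were chosen with earlier results of these data known. Members with full values were the 12 called with the largest change in the untreated genotype comparison and the largest in each role, and elsewhere the 3 with the smallest p.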

Additional observations from a re-analysis of the deposited data

Results flagged for a closer look

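Timm17a in wild-type cells with H2O2 had one library away from the other 3. Replicate 16 read 130.5 CPM while the others lay between 125.6 and 126.2 CPM, a gap of 0.886 of the group's whole range. Groups of 4 libraries were checked in this way 102 times, and this was the only one past Dixon's critical value, which chance alone passes in about 1 of 20 groups. Without that library Timm17a remained called as higher in the knockout with H2O2.

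Tomm20 with H2O2 stood on opposite sides of its untreated level in the genotypes. In knockout cells every treated library was above every untreated one, with a log2 fold change of 0.071. The margin was only just there, at 334.2 CPM in treated replicate 8 against 334.0 CPM in untreated replicate 2. In wild-type cells every treated library was below every untreated one, with -0.069. The difference between the genotypes was tested by the interaction term and did not pass (log2 0.14, unadjusted p = 0.00999, adjusted p = 0.730 by edgeR's quasi-likelihood test).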

How the results depend on the processing

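In both genotype comparisons the counts of called members stayed within 1.5 times the reported ones in every alternative. The 66 combinations of comparison and alternative also include the H2O2 and interaction comparisons. There the reported count was 0, so no such ratio can be formed. Of the 25 members called in untreated cells, 17 were called in each alternative in which they were tested (14 higher, 3 lower). Of the 23 called with H2O2, 16 were (12 higher, 4 lower). No alternative summed Pam16 or Pmpca, both among the 17, with Glis2 or Inpp5e on the opposite strand. Leaving out 1 library at a time gave 20 to 26 called members in untreated cells, beside 8399 to 8682 of all genes. With H2O2 it gave 19 to 23, beside 7965 to 8308 of all genes. In the H2O2 and interaction comparisons it gave 0 members, beside at most 18 genes in all. With RLE factors 23 and 22 were called, without a filter 22 and 19, and with DESeq2 21 and 19. With only the groups compared the counts were 23 and 23, and with near-identical loci of the same orientation summed 24 and 23. In the reported comparisons 66.8% and 65.4% of all genes tested were called. The shares of all genes under these other settings are not given here. Timmdc1, never called, changed sign around 0 as libraries were left out: in untreated cells its log2 fold change ran from -0.043 to 0.031 (above 0 without knockout replicate 2 or 4), and with H2O2 from -0.011 to 0.084 (below 0 without knockout replicate 7 or wild-type replicate 16). No paired analysis was possible because the groups share no replicate numbers. The knockout line and genotype cannot be told apart, since the number of clones is not given. Low counts limit Tomm6os most, and the shared exon sequence of Pam16, Pmpca, Dnajc19, Timm8b, Timm10b, Timm29 and Grpel1 with neighbours limits those members.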
